A study of Homo sapiens with 3 samples.

Results

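The cells described here were the least cycling cells of 2 prostate cancer lines under the same drug: LNCaP after 168 h and VCaP after 48 h in 10 µM enzalutamide (ENZ), an antiandrogen. They were chosen cell by cell from measured values, as the 50% of cells in each library with the smallest share of UMIs from 12 cycling genes, TOP2A, MKI67, CENPF, UBE2C, CCNB1, PCNA, MCM3, MCM4, MCM5, MCM7, TYMS and HMGB2. A UMI is a molecular tag that marks 1 captured mRNA molecule. This gave 471 of 943 kept cells in LNCaP–ENZ168 and 458 of 917 in VCaP–ENZ48, 929 cells in all, out of 2857 kept cells in the 3 libraries of the series. The third library, VCaP parental, came from VCaP cultured 48 h with the vehicle DMSO, and its 498 least cycling cells of 997, taken in the same way, are given beside the others as the level in VCaP without drug.

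Single-cell libraries were made by Drop-seq, in which cells and barcoded beads meet in droplets, with 1 library per group. LNCaP cells grew in RPMI and VCaP cells in DMEM, both with serum, and both lines are labelled sensitive to ENZ. Line, medium, treatment time and run all differed between the drug-treated libraries and cannot be told apart. With 1 library per group differences could not be set against a spread between replicates and are given without a test. Every interval is a 95% interval and covers counting error only.

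Androgens drive growth and secretory functions of luminal prostate epithelium by inducing the transcription of target genes, and ENZ blocks this response. Cells deprived of this signal often stop in G1, where cyclin D and CDK4 or CDK6 activity is held down by CDK inhibitors such as p27 (CDKN1B) and p21 (CDKN1A) and the replication and mitosis genes are silent. LNCaP comes from a lymph node metastasis and VCaP from a vertebral metastasis. VCaP carries the fusion that places ERG under the androgen-responsive promoter of TMPRSS2, and LNCaP carries a rearrangement of another ETS factor gene, ETV1.

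Among androgen targets KLK2 and KLK3 lay on opposite sides of the comparison. They encode neighbouring secreted kallikrein proteases, KLK3 being prostate-specific antigen. Their promoters are shown because the genes differed in direction while the same letters of a hormone response motif stand in both. The sequences are from RefSeq on GRCh38.p14, plus strand, each running from 250 bases before to 50 bases after the gene's start, and capitals mark GAACA and GTNCT with 4 bases of any kind between, a form of the steroid response element chosen after these sequences were seen and searched on both strands. The window of KLK2 is chr19:50873189-50873488 and that of KLK3 chr19:50854665-50854964. The start is that of RefSeq, which for KLK2 lies inside the longer span that Gencode gives the gene.

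KLK2: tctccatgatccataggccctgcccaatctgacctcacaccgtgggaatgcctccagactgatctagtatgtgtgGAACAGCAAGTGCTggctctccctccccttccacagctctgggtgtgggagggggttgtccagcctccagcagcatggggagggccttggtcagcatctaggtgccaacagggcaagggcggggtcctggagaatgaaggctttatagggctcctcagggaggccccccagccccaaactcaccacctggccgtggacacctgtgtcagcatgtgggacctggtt

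KLK3: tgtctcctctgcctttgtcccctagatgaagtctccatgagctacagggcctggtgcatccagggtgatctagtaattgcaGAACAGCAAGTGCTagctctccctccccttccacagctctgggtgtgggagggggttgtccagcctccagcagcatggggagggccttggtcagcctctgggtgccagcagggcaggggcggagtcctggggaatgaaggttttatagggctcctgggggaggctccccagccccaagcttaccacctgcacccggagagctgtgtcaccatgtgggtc

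Each window held the match once, starting 175 bases before the start of KLK2 and 169 bases before that of KLK3, and both shared an identical run of 80 bases just behind it. Among all 35116 promoter windows of this length in the table, 87 (0.248%) held a match. A match is a description of the letters and says nothing of occupancy.

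The least cycling cells had a median of 5500 UMIs and 2587 genes in LNCaP–ENZ168, 13875.5 UMIs and 3725 genes in VCaP–ENZ48, and 17221 UMIs and 4185.5 genes in VCaP parental, and their summed depth was 3212254, 7884575 and 9402930 UMIs. Ribosomal protein mRNAs took 10.3%, 25.4% and 21.7% of UMIs in that order, and mitochondrial genes 9.23%, 7.36% and 6.51%. Barcodes ending in N made up 19.7%, 85.6% and 86.1% of the cells. Each pair of libraries shared 1 barcode, and none was shared among the least cycling cells. The luminal keratin genes KRT8 and KRT18, EPCAM and CDH1 were detected in all 3 libraries. Of the basal markers, KRT5 and TP63 were not listed in the files and KRT14 had 2, 4 and 15 UMIs. Endothelial markers summed to at most 2.49 CPM (UMIs of a gene scaled to a common total per library) and blood cell markers to at most 0.634 CPM. The 5 fibroblast markers in the data summed to 25, 209 and 184 UMIs. Of these, LUM had 0, 201 and 176 UMIs and COL1A1 had 10, 7 and 5. ERG, the fusion gene of VCaP, had 0 UMIs in LNCaP–ENZ168 against 457 and 1422 in the VCaP libraries.

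The 12 genes that chose the cells are described as a check of the choice. Of these, 6 were among the genes compared between the lines below, and none of the 6 differed 4-fold there. In LNCaP–ENZ168 the last cell inside the chosen 50% had a share of 0.0438% (5 of 11412 UMIs) and the first outside 0.0440% (3 of 6822 UMIs). In VCaP–ENZ48 they had 0.0230% (2 of 8693 UMIs) and 0.0231% (2 of 8648 UMIs). The line between chosen and other cells therefore ran through cells with a few UMIs of these genes. No UMI of the 12 genes was seen in 112 of the 471 LNCaP cells and 117 of the 458 VCaP cells. Summed over cells, the 12 genes stood at 217 CPM in the least cycling LNCaP cells and at 2494 CPM in the other LNCaP cells, and at 130 and 1240 CPM in VCaP–ENZ48. In VCaP parental, where the threshold lay at 0.337%, the least cycling cells held 1166 CPM. The chosen VCaP parental cells thus had more of these transcripts than either drug-treated set, and only 2 of the 498 had none.

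**Figure D1:**
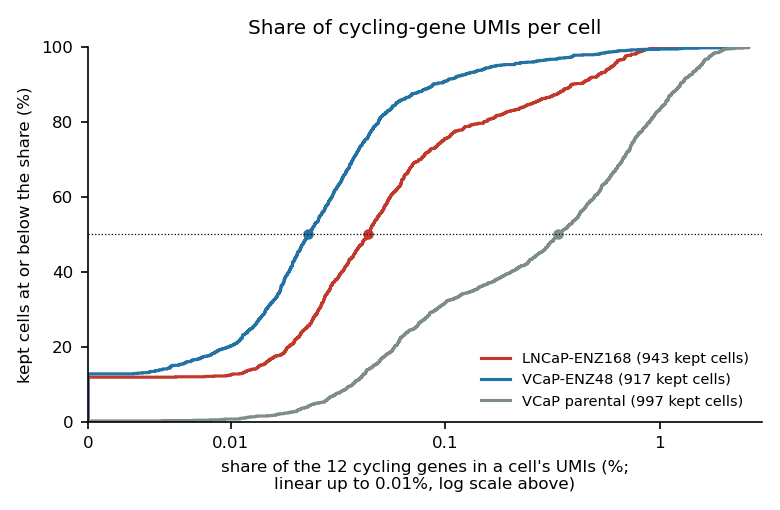
Cumulative share of kept cells (vertical axis, %) at or below a given share of UMIs from the 12 cycling genes (horizontal axis, %, linear up to 0.01% and log above) for LNCaP–ENZ168, VCaP–ENZ48 and VCaP parental. Dots mark the last cell taken in each library, at 0.0438%, 0.0230% and 0.337%, and the VCaP parental curve lies to the right of both drug-treated curves.

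The main comparison asked how gene expression differed between the lines when cycling cells were set aside. UMIs were summed over the chosen cells and scaled to CPM, and each gene's log2 ratio, LNCaP–ENZ168 over VCaP–ENZ48, was taken minus the median over 8754 genes whose CPM averaged 10 or more in the 2 drug-treated sets. This difference is called the relative ratio. The median ratio itself was 0.67, so CPM were generally higher in the LNCaP cells, beside the smaller share that ribosomal protein mRNAs took there. Relative to the median, 459 genes (5.24%) were at least 4-fold higher in LNCaP–ENZ168 and 831 genes (9.49%) at least 4-fold lower, and 124 and 353 genes differed by 16-fold or more. The quartiles of the relative ratio were -0.75 and 0.67. Without centring the split turned, with 979 genes higher and 623 lower, so that 61.1% of calls were higher against 35.6% with centring. A gene near 0 in either set entered through the other set alone, so the minimum mean of 10 CPM fixed its direction. Of the lower calls 72 had no UMI in LNCaP–ENZ168, and of the higher calls 37 had none in VCaP–ENZ48. A count of 0 allows up to 0.934 CPM in the former, 0.380 CPM in the latter and 0.319 CPM in VCaP parental, from 3 UMIs per library, and the ratio of such a gene was set at that limit.

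**Figure D2:**
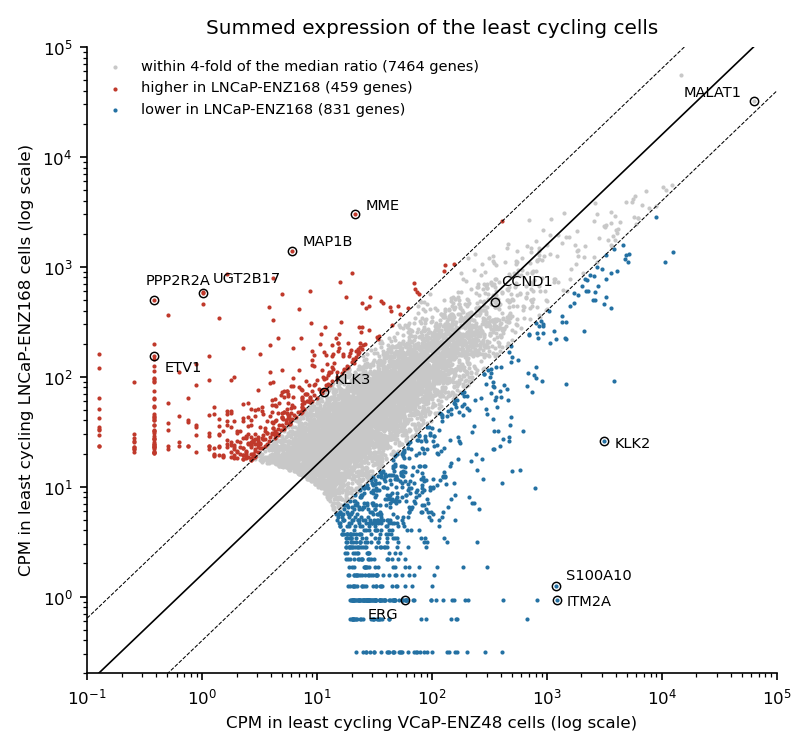
Summed expression of 8754 genes in the least cycling cells, VCaP–ENZ48 on the horizontal and LNCaP–ENZ168 on the vertical axis (CPM, both log scales), with genes at 0 drawn at the level of 3 UMIs. The solid line is the median ratio and the dashed lines lie 4-fold to each side, and KLK2, S100A10 and ITM2A fall far below while MME, MAP1B and PPP2R2A lie far above.

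Genes that androgen induces in prostate cells differed within the group. Of 25 measured members, none was 4-fold higher in LNCaP–ENZ168 and 7 were 4-fold lower, against 5.24% and 9.49% of all genes, and the median relative ratio was -0.42 (0.24 without centring). KLK2 (chromosome 19, 50861568 to 50880567) gave 83 UMIs and 25.8 CPM (20.6 to 32.03) in LNCaP–ENZ168. It gave 24989 UMIs and 3169 CPM in VCaP–ENZ48, with 2046 CPM in VCaP parental, a relative ratio of -7.61 (-7.94 to -7.30). KLK3 (chromosome 19, 50854915 to 50860764) went the other way, with 231 UMIs and 71.9 CPM (62.9 to 81.8) in LNCaP–ENZ168 against 11.5 CPM (9.29 to 14.2) in VCaP–ENZ48, with 6.70 CPM (5.15 to 8.57) in VCaP parental. Its relative ratio of 1.97 (1.62 to 2.34) fell just short of 4-fold. The size of this ratio depended on the cells taken. It was 1.26 in cells of 4000 to 12000 UMIs, 2.41 over all kept cells and 2.41 when cells were ranked by other S and G2M genes. The genes whose promoters share 80 bases in a row thus stood on opposite sides of the median, and their reads can be confused in counting because the transcripts are alike.

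The same opposition was seen in single cells. With each cell thinned to 2000 UMIs, KLK2 was found in 27 of 471 LNCaP cells (5.73%, 3.81 to 8.23%) and in 443 of 458 VCaP–ENZ48 cells (96.7%, 94.7 to 98.2%). KLK3 was found in 41 LNCaP cells (8.70%, 6.32 to 11.6%) and 17 VCaP–ENZ48 cells (3.71%, 2.177 to 5.88%). Unthinned, KLK3 had a UMI in 19.7% and 15.5% of cells, and 1 LNCaP cell carried 21 of its 231 UMIs. Every one of the 458 VCaP–ENZ48 cells had KLK2 before thinning. Free RNA in droplets can give UMIs to cells that do not express a gene, and its level was not tested, since no cell type lacking these genes was present within a library.

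Other androgen-induced genes lay on both sides of the median. TRPM8, a cold-sensing calcium channel, had 2 UMIs in LNCaP–ENZ168 against 89.7 CPM in VCaP–ENZ48 (relative ratio -7.84, -10.89 to -5.98), and HPGD, which degrades prostaglandins, had 6 UMIs against 186 CPM (-7.31, -8.76 to -6.18). These low LNCaP values sat beside near-equal values for the classical androgen target FKBP5, a chaperone partner of steroid receptors. FKBP5 was at 25.5 CPM (20.3 to 31.7) in LNCaP–ENZ168, 21.6 CPM (18.4 to 25.1) in VCaP–ENZ48, with 68.7 CPM (63.5 to 74.2) in VCaP parental. Both drug-treated sets thus lay below the VCaP vehicle cells, and the series held no LNCaP vehicle library to set beside LNCaP–ENZ168. PMEPA1, an inhibitor of TGF-beta signaling, was at 29.3, 96.9 and 251 CPM in that order, and NDRG1, a stress-responsive differentiation gene, at 44.5, 188 and 156 CPM. On the LNCaP side were the metalloreductase gene STEAP2, with 1139 against 338 CPM (relative ratio 1.08), and the protease gene TMPRSS2, with 112 CPM against 17.8 CPM in VCaP–ENZ48, with 37.5 CPM in VCaP parental (1.99).

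Enzymes that make or remove steroids included some of the most unequal genes. Of 10 measured, 2 were 4-fold higher in LNCaP–ENZ168 and 2 lower, beside 5.24% and 9.49% of all genes. The median relative ratio was 1.02. UGT2B17 and UGT2B15 join glucuronic acid to dihydrotestosterone and so clear it from the cell. UGT2B17 (chromosome 4, 68537173 to 68576413) was at 575 CPM (549 to 602) in LNCaP–ENZ168 against 8 UMIs or 1.01 CPM in VCaP–ENZ48, with 2.87 CPM in VCaP parental, a relative ratio of 8.48 (7.50 to 9.69). UGT2B15 was at 331, 4.19 and 7.98 CPM, a relative ratio of 5.64 (5.14 to 6.18). Both were thus near 0 in VCaP, although the near-identical sequences of the family leave the split between the pair uncertain. In the other direction lay AKR1C3, which reduces androstenedione to testosterone, at 11.8 CPM against 101 CPM in VCaP–ENZ48, with 44.7 CPM in VCaP parental (-3.77, -4.28 to -3.30). HSD17B11, a dehydrogenase of the retinol and steroid family, was also lower (7.78 against 48.6 CPM, -3.31), and the reductase genes SRD5A1 and SRD5A3 were at 27.7 against 10.5 CPM and 79.7 against 12.8 CPM.

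Transcription factors that define prostate lineage were mostly near the median or below it, with a median relative ratio of -0.81. Of 14 measured, 1 was higher and 3 lower, beside 5.24% and 9.49% of all genes. HOXB13, the posterior homeobox factor of prostate, was at 413 against 387 CPM, and the pioneer factor FOXA1 at 162 against 142 CPM. The ETS factors separated the lines by presence and absence. ETV1 (chromosome 7, 13891229 to 13991425) had 501 UMIs and 156 CPM (143 to 170) in LNCaP–ENZ168 and 0 UMIs in both VCaP libraries, which makes its CPM at least 410-fold higher than in VCaP–ENZ48. ERG (chromosome 21, 38380027 to 38661780) had 57.96 CPM (52.8 to 63.5) in VCaP–ENZ48, 151 CPM in VCaP parental and 0 UMIs in LNCaP–ENZ168. Also lower in LNCaP were the proliferation factor MYC (150 against 493 CPM, -2.39) and SOX9 (6.54 against 63.7 CPM, -3.95), a factor of progenitor cells.

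**Figure D3:**
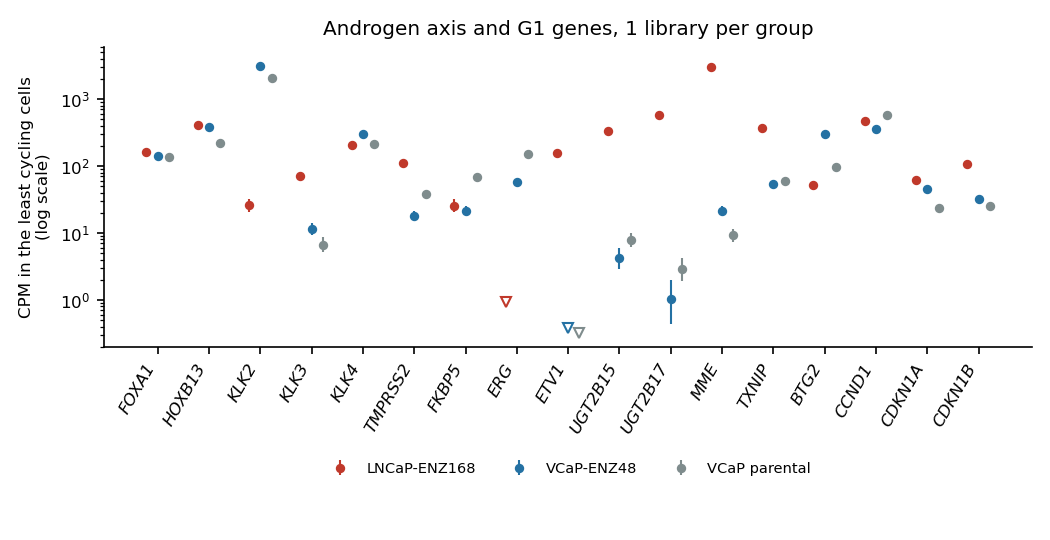
Expression of 17 androgen axis and G1 genes in the least cycling cells of LNCaP–ENZ168, VCaP–ENZ48 and VCaP parental (CPM, log scale). Dots are sums over the cells of 1 library with exact Poisson 95% intervals, and open triangles mark a count of 0 drawn at the level of 3 UMIs, as for ERG in LNCaP and ETV1 in VCaP.

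Genes that hold cells in G1 or mark quiescence were called about as often as genes at large. Of 18 measured, 1 was 4-fold higher in LNCaP–ENZ168 and 1 lower, beside 5.24% and 9.49% of all genes, 12 lay above the median and 6 below, and the median relative ratio was 0.43. The higher gene was TXNIP, an inhibitor of thioredoxin and of glucose uptake, with 375 CPM (355 to 397) against 53.3 CPM (48.3 to 58.6) in VCaP–ENZ48, with 60.6 CPM in VCaP parental. The lower gene was the antiproliferative factor BTG2, with 51.4 CPM against 299 CPM in VCaP–ENZ48, with 97.52 CPM in VCaP parental, a relative ratio of -3.21. The inhibitor CDKN1B was at 108 CPM (97.3 to 120) in LNCaP–ENZ168 against 32.5 CPM (28.6 to 36.7) in VCaP–ENZ48, with 25.2 CPM (22.1 to 28.6) in VCaP parental, a relative ratio of 1.07 (0.83 to 1.31). CDKN1A was at 62.0 CPM (53.6 to 71.2), 44.9 CPM (40.3 to 49.8) and 23.4 CPM (20.4 to 26.7), and its relative ratio of -0.20 had an interval of -0.46 to 0.05. CCND1, the D-type cyclin of prostate cells, was at 474, 355 and 570 CPM, a relative ratio of -0.25. RBL2, the pocket protein p130 of the quiescence complex DREAM, was at 164 against 38.0 CPM (1.44), while RB1 was at 32.4 against 13.8 CPM (0.56) and CDK4 at 149 against 147 CPM (-0.65). In thinned cells CDKN1B was found in 19.7% of LNCaP cells (16.2 to 23.6%) and 6.77% of VCaP–ENZ48 cells (4.64 to 9.47%), and without thinning in 49.7% and 36.0%.

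The S and G2M genes outside the 12 move with the genes that chose the cells, so they serve as a check of the choice. Their calls are read beside 5.24% higher and 9.49% lower among all genes. Of 22 measured S phase genes, none was 4-fold higher and 1 was lower, with a median relative ratio of -0.13 (0.54 without centring), and of 19 G2M genes 1 was higher and 3 lower, with a median of 0.30. Their summed levels were 930 CPM in LNCaP–ENZ168, 620 CPM in VCaP–ENZ48, with 1942 CPM in VCaP parental for S phase, and 1680, 869 and 2065 CPM for G2M. Both sums were at a higher CPM in the LNCaP cells than in the drug-treated VCaP cells. CPM were also generally higher there over all genes, with a median log2 ratio of 0.67, which these sums do not take off. The G2M genes off the median were CDK1, the mitotic kinase (39.8 against 3.68 CPM, 2.77), and on the other side the checkpoint kinase TTK (2.80 against 26.0 CPM, -3.88), the kinase subunit gene CKS1B (6.85 against 32.8 CPM, -2.93) and LBR, the lamin B receptor (28.6 against 105 CPM, -2.54).

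Among called genes with at least 100 CPM in the higher library, the 15 largest ratios in each direction set abundance against near absence. The 15 of them farthest above the median reached 113 to 1403 CPM in LNCaP–ENZ168, with 0 to 48 UMIs in VCaP–ENZ48 and at most 11.4 CPM in VCaP parental. PPP2R2A, a regulatory subunit of protein phosphatase 2A, had 1607 UMIs and 500 CPM in LNCaP–ENZ168, and 0 UMIs in VCaP–ENZ48, a fold of at least 1315 in CPM. BNIP3L, a mitophagy receptor whose gene stands next to it, was at 366 CPM against 4 UMIs. Others were HMGN5, a nucleosome-binding protein (162 CPM against 1 UMI, relative ratio 9.65, 7.17 to 14.96), USP10, a deubiquitinase (119 CPM against 1 UMI, 9.20, 6.72 to 14.51), ADGRG6, an adhesion receptor (588 CPM against 8 UMIs), TFPI, the inhibitor of tissue factor (460 CPM against 8 UMIs), and NCAM2, a neural adhesion molecule (864 CPM against 13 UMIs). The list was completed by MMP16, EFNA5, SH3BGRL and CSMD1, which had 0 UMIs in VCaP–ENZ48, by ST3GAL1 (11 UMIs) and the microtubule protein gene MAP1B (1403 CPM against 48 UMIs), and by UGT2B17 and ETV1. In thinned cells PPP2R2A was found in 280 of 471 LNCaP cells (59.4%, 54.9 to 63.9%), MAP1B in 395 (83.9%, 80.2 to 87.1%) and NCAM2 in 373 (79.2%, 75.2 to 82.8%).

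Under the same minimum of 100 CPM, the 15 genes farthest below the median were at 100.2 to 1220 CPM in VCaP–ENZ48 and 58.4 to 1482 CPM in VCaP parental, with at most 4 UMIs in LNCaP–ENZ168. ITM2A, a membrane protein of differentiating cells, had 9616 UMIs and 1220 CPM in VCaP–ENZ48 and none in LNCaP–ENZ168, a fold of at least 1306 in CPM. ADIRF, an adipogenesis factor, had 6491 UMIs against none, at least 881-fold. S100A10, the light chain of annexin A2, was at 1199 CPM against 4 UMIs (relative ratio -10.58, -12.46 to -9.22) and the tetraspanin TSPAN8 at 673 CPM against 2 UMIs (-10.75, -13.79 to -8.89). With 1 UMI each in LNCaP stood PCP4, a calmodulin regulator (409 CPM in VCaP–ENZ48, -11.03, -16.33 to -8.55), the noncoding RNA PCAT14 (290 CPM), the secretory granule protein CHGB (203 CPM), TRGV9 (166 CPM), ZNF22 (158 CPM), CSRP2 (142 CPM), the inhibitor of basic helix-loop-helix factors ID4 (136 CPM) and EPHB6 (100.2 CPM). PEG10 (414 CPM), TMC5 (166 CPM) and CRISP3, a secreted protein of seminal fluid (163 CPM), had 2 or 3 UMIs in LNCaP. In thinned cells ITM2A was found in 378 of 458 VCaP–ENZ48 cells (82.5%, 78.7 to 85.9%), S100A10 in 393 (85.8%, 82.3 to 88.9%) and ADIRF in 343 (74.9%, 70.7 to 78.8%), and ADIRF and ITM2A in 0 of 471 LNCaP cells, which allows up to 0.780% by the exact limit.

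Several VCaP genes were also unequal between the VCaP libraries. PCP4 was at 88.8 CPM in VCaP parental and 409 CPM in VCaP–ENZ48, and CHGB at 83.0 and 203 CPM. NPY, a secreted neuropeptide, was at 2675 CPM in VCaP parental and 99.1 CPM (92.2 to 106) in VCaP–ENZ48 with 0 UMIs in LNCaP–ENZ168. For ITM2A, S100A10, ADIRF and TSPAN8 the VCaP parental levels were 1482, 855, 1177 and 334 CPM, so these genes were abundant in VCaP with and without drug.

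Surface proteins held differences in both directions, with a median relative ratio of 0.65. Of 15 measured, 5 were higher and 2 lower, beside 5.24% and 9.49% of all genes. MME (chromosome 3, 155024124 to 155183704), the peptidase neprilysin of luminal cells, was at 3044 CPM in LNCaP–ENZ168, 21.4 CPM (18.3 to 24.9) in VCaP–ENZ48, with 9.25 CPM (7.41 to 11.4) in VCaP parental, a relative ratio of 6.48 (6.26 to 6.71). It was found in 463 of 471 thinned LNCaP cells (98.3%, 96.7 to 99.3%) and 18 of 458 VCaP–ENZ48 cells (3.93%, 2.35 to 6.14%), and unthinned in 99.8% and 15.1%. The receptor genes ERBB2 (212 against 41 UMIs, 3.00) and ERBB3 (73.5 against 5.45 CPM, 3.08) and the adhesion molecule gene ALCAM (257 against 24.1 CPM, 2.75) were on the same side. The lowest of the list was TSPAN8, with 2 UMIs in LNCaP–ENZ168 against 673 CPM in VCaP–ENZ48 (-10.75). FOLH1, prostate-specific membrane antigen, was near the median at 1088 against 717 CPM (-0.07), with 378 CPM in VCaP parental.

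Markers of neuroendocrine cells were mostly far lower in LNCaP, with 5 of 7 lower, none higher and a median relative ratio of -5.70. Another 8 of the 15 markers in the data fell below the minimum mean of 10 CPM. The median ran from -7.95 to -2.74 over alternatives of processing, the latter with 5 CPM added. Counts in this paragraph are read beside 5.24% higher and 9.49% lower among all genes. The granins CHGA (0 against 281 UMIs) and CHGB, SCG3 (0 against 1227 UMIs) and SCG2 (2 against 161 UMIs) made up most of the lower markers. These granins passed the minimum through VCaP–ENZ48 alone, so their direction was fixed by it. ENO2 was at 24.9 against 10.3 CPM. The neuroendocrine regulator INSM1 had 0 and 13 UMIs. Of 11 S100 proteins and annexins 5 were lower, namely S100A10 and its partner ANXA2 (0 UMIs against 48.2 CPM), S100A11 (171 against 1268 UMIs), ANXA1 (7 against 321 UMIs) and ANXA3 (0 against 214 UMIs). All of these but S100A11 passed the minimum through VCaP–ENZ48 alone, which fixed their direction. Annexins 4, 5, 6, 7 and 11 were above the median within 4-fold, with ANXA5 at 289 against 106 CPM and ANXA7 at 336 against 151 CPM. This list's median was -1.65, and 0.59 when the minimum was raised to a mean of 50 CPM. Among epithelial keratins and adhesion genes 2 of 10 were higher and 1 lower (median -0.50, 0.17 without centring). The higher ones were the mesenchymal genes VIM (108 UMIs in LNCaP–ENZ168 against 1 UMI, relative ratio 7.38, 4.87 to 12.70) and FN1 (206 against 6 UMIs), and 1 LNCaP cell held 36 of the FN1 UMIs. VIM and FN1 passed the minimum through LNCaP–ENZ168 alone, which fixed their direction. The lower gene of this list was CD24 (10.9 against 409 CPM).

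Genes of patterning and of BMP and TGF-beta feedback held calls in both directions, beside 5.24% higher and 9.49% lower among all genes. Of 6 measured HOX genes 3 were lower and 1 higher (median -1.32). HOXA13 was at 1 UMI against 45.9 CPM, HOXA9 at 3 UMIs against 68.1 CPM and HOXA10 at 29.3 against 76.6 CPM. HOXC9 was at 48.3 against 7.10 CPM. HOXA13 and HOXA9 passed the minimum through VCaP–ENZ48 alone and HOXC9 through LNCaP–ENZ168 alone, so their direction was fixed by it. Another 26 of the 32 HOX genes fell below the minimum mean of 10 CPM. The HOX median ran from -2.49 to -0.65 over alternatives of processing. Of 11 feedback genes 4 were lower and 1 higher (median -1.81), namely ID4, BMP7 (0 UMIs against 27.6 CPM), ID2 (124 against 801 CPM) and PMEPA1, and BMPR1B (45.5 against 3.42 CPM). Of 11 long noncoding RNAs 4 were lower and none higher (median -1.67). MALAT1 was at 3.21% of UMIs in LNCaP–ENZ168 against 6.41% in VCaP–ENZ48 and 4.45% in VCaP parental, and NEAT1, the paraspeckle RNA, at 775 against 2164 CPM. Of 11 metallothioneins and zinc transporters 3 were lower and 1 higher (median -0.88). The metal-binding proteins MT1E (0 UMIs against 194 CPM) and MT2A (35.8 against 231 CPM) were lower, and the zinc importer SLC39A8 was at 89.7 CPM against 2 UMIs. The direction of ID4, BMP7 and MT1E was likewise fixed by passing through VCaP–ENZ48 alone, and that of BMPR1B and SLC39A8 through LNCaP–ENZ168 alone.

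Ribosomal protein mRNAs were mostly below the median, with 77 of 80 below it and a median relative ratio of -2.05. By 4-fold, 42 of the 80 were lower and none higher, against 9.49% and 5.24% of all genes. They summed to 102827 CPM in LNCaP–ENZ168, 254258 CPM in VCaP–ENZ48, with 217111 CPM in VCaP parental. The members were not shifted alike, since RPL13 was at 3785 against 2646 CPM (-0.15), RPL8 at 2994 against 2733 CPM (-0.54) and RPS19 at 1113 against 10669 CPM (-3.93). These short transcripts have many processed copies in the genome, which leaves single members uncertain. All 13 mitochondrially encoded mRNAs lay below the median, 1 of them by 4-fold, with relative ratios from -2.28 for MT-ND3 to -0.46 for MT-ND5 and a median of -1.25. Of 79 nuclear subunits of the respiratory chain 64 lay below it, 1 by 4-fold (COX8A, 473 against 1711 CPM) and none above by 4-fold, with a median of -0.76.

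**Figure D4:**
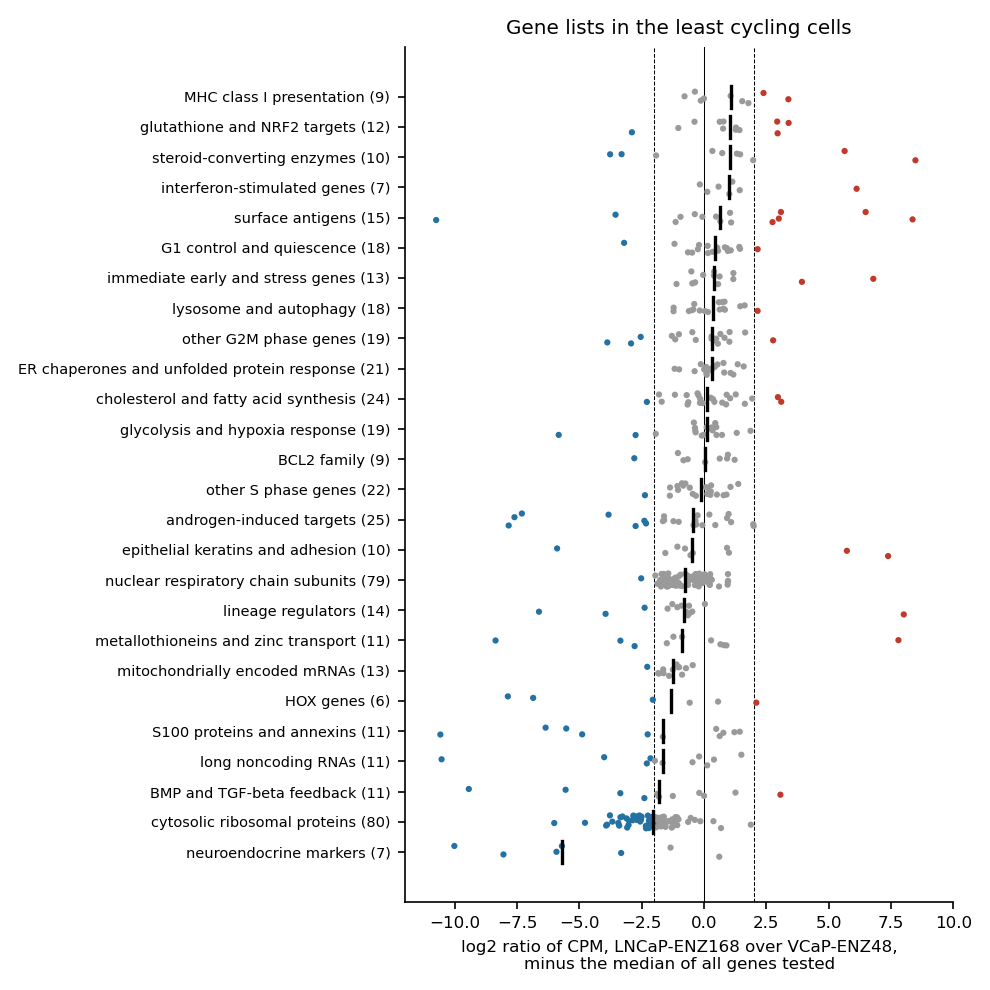
Relative ratios of the measured members of 26 gene lists in the least cycling cells (horizontal axis, log2 ratio of CPM, LNCaP–ENZ168 over VCaP–ENZ48, minus the median of all genes tested), with the number measured after each name. Each dot is 1 gene, black bars are list medians and dashed lines mark 4-fold, and the lists run from neuroendocrine markers at -5.70 to MHC class I presentation at 1.06. Genes below a mean of 10 CPM are not drawn, and with that minimum at 1 CPM the MHC class I median was -0.015.

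Called stress, immune and redox genes were on the LNCaP side except thioredoxin. The counts stand beside 5.24% higher and 9.49% lower among all genes. Of 9 MHC class I genes 2 were higher and none lower (median 1.06), among them HLA-E at 50.4 against 3.04 CPM, with B2M at 430 against 466 CPM. With the minimum lowered to a mean of 1 CPM the median of this list was -0.015. Counting of HLA genes depends on how well each allele matches the reference. Of 7 interferon-stimulated genes only the membrane protein gene IFITM2 was called (42.0 against 0.380 CPM). The median of that list was 1.01, and 0.25 at a minimum mean of 1 CPM. Of 13 immediate early and stress genes 2 were higher, the small heat shock protein HSPB1 (111 CPM against 5 UMIs) and ATF3 (285 against 11.8 CPM, and 43.1 CPM in VCaP parental), while FOS was at 1710 against 813 CPM and EGR1 at 229 against 206 CPM (median 0.41). Of 12 glutathione and NRF2 target genes 3 were higher, the quinone reductase NQO1 (157 against 9.39 CPM, 3.39), glutathione reductase GSR (54.5 against 4.44 CPM) and the cystine transporter SLC7A11 (27.7 against 2.28 CPM), and thioredoxin TXN was lower (312 against 1459 CPM, -2.90), with a median of 1.03. TXN and its inhibitor TXNIP thus lay on opposite sides of the median.

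In metabolic and housekeeping lists the counts are read beside 5.24% higher and 9.49% lower among all genes. None of 21 ER chaperone and unfolded protein response genes was called (median 0.30), with HSPA5, the chaperone BiP, at 1199 against 612 CPM and 1091 CPM in VCaP parental. Of 24 cholesterol and fatty acid genes 2 were higher and 1 lower (median 0.11). The lipogenic factor SREBF1 (69.1 against 5.58 CPM) and the desaturase FADS2 (55.1 against 4.06 CPM) were higher and squalene epoxidase SQLE was lower (39.8 against 123 CPM). HMGCS1, the cytosolic HMG-CoA synthase, was at 55.7 and 55.6 CPM in the drug-treated sets and 521 CPM in VCaP parental, and INSIG1, the sterol sensor, at 55.1, 36.1 and 481 CPM. Of 19 glycolysis and hypoxia genes 2 were lower (ADM, 1.25 against 44.6 CPM, and NDRG1), with a median of 0.10, and of 18 lysosome and autophagy genes only CTSB was called (161 against 22.8 CPM, median 0.37). Of 9 BCL2 family genes BAD was lower (80.0 against 351 CPM) and the others were within 4-fold (median 0.04), with the survival factor MCL1 at 116 against 38.6 CPM.

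Lists used by the study were also read, its cluster markers having been found in LNCaP libraries. Beside 5.24% higher and 9.49% lower among all genes, markers of its initial clusters had 38 of 152 measured genes higher and 17 lower (median 0.54), markers of ENZ-induced clusters 25 and 11 of 156 (0.08), cluster 3 alone 16 and 7 of 105 (0.06), and markers of persistent clusters 29 and 16 of 387 (0.05). Of the PROSGenesis signature 5 of 53 were higher and 11 lower (-0.34), and of 5 measured Persist genes none was called (0.98). Since the cluster markers were found in LNCaP cells, their counts on the LNCaP side are not independent of the line. The paper reports high S and G2M scores for some persistent clusters and ties the Persist genes to cycling. Both lists thus overlap with what the choice of cells set aside, and their counts are no measure of persistence. Of 14 Persist genes 9 fell below the minimum. In the comparison of cell sets below, 9 persistent markers had a ratio at least 2-fold lower in the least cycling cells.

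Position was then read along the chromosomes. Of 8376 tested genes with a position, those of chromosome 16 had the highest median relative ratio (0.77, with 34 of 316 higher and 15 lower) and those of chromosome 21 the lowest among nuclear chromosomes (-0.81, with 8 of 103 higher and 19 lower). The other nuclear chromosomes had medians from -0.29 to 0.30, and of all genes tested 5.24% were higher and 9.49% lower. Among 7909 protein-coding genes in order there were 24 runs of at least 3 neighbours called the same way, 12 higher and 12 lower, holding 82 genes. These genes were picked for their position after their values were seen.

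The longest run had 7 genes of distal chromosome 13 (109752695 to 111305737), all lower in LNCaP, with IRS2, the insulin receptor adaptor, at 1.87 against 58.5 CPM, ANKRD10 at 19.6 against 243 CPM and ARHGEF7 at 20.2 against 112 CPM. A run of 5 on the short arm of chromosome 9 (4984390 to 5470566) was higher and held the kinase JAK2 (42.6 against 2.54 CPM), the hormone genes RLN1 and RLN2, PLGRKT (440 against 28.3 CPM) and CD274, the ligand PD-L1 (74 UMIs against 0). Another run of 5, on chromosome X (152133310 to 152769716), held the cancer-testis genes MAGEA10, MAGEA3, CSAG1, MAGEA12 and MAGEA6, with 118 to 305 UMIs each in LNCaP–ENZ168 and 0 in both VCaP libraries. MAGEA3 and MAGEA6 are near-identical copies, so the split between them is uncertain. Runs of 4 lay on chromosome 11 around BAD (VEGFB, FKBP2, PPP1R14B and BAD, all lower) and on chromosome 21 (IGSF5, PCP4, BACE2 and FAM3B, all lower), the latter within a few megabases of ERG. Pairs of neighbours near 0 in VCaP were also seen among these genes of largest ratio. PPP2R2A and BNIP3L adjoin on chromosome 8 (26291508 to 26505636), HMGN5 and SH3BGRL on chromosome X (81113699 to 81298547), and in VCaP parental PPP2R2A had 1 UMI and the other 3 genes none.

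The last comparison asked which differences between the lines belonged to the least cycling cells in particular, by setting the log2 ratio in the chosen cells against that in the other kept cells of the same libraries. Over 7644 genes with at least 30 UMIs in each of the 4 sums, the difference had a median of 0.035 and 95% of genes lay between -0.63 and 0.67. The ratio was at least 2-fold higher in the least cycling cells for 37 genes (0.484%) and at least 2-fold lower for 20 genes (0.262%). For the other genes the ratios in the 2 sets of cells differed by less than 2-fold. Of the 12 genes that chose the cells 6 entered this comparison. Among them 1 was counted with the lower genes, an outcome tied to the choice of cells. The other cells had a median of 5259 UMIs in LNCaP–ENZ168 and 9800 in VCaP–ENZ48, against 5500 and 13875.5 in the least cycling cells. Among cells of 4000 to 12000 UMIs alone, 7 genes had a ratio at least 2-fold higher and 28 at least 2-fold lower. Of the 459 higher calls 363 were also 4-fold above the median in the other cells, and of the 831 lower calls 777 were also 4-fold below it. MME, for example, was at 2289 against 13.5 CPM in the other cells, a difference of -0.26 (-0.63 to 0.12), and CDKN1B at 116 against 43.2 CPM (0.32, -0.01 to 0.64).

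Of the 5 genes with the lowest difference 3 are genes of division, which move with the rule. CKS2, a subunit of mitotic kinases, was at 37.7 CPM in the least cycling and 160 CPM in the other LNCaP cells, and at 52.9 and 87.3 CPM in VCaP–ENZ48, a difference of -1.37 (-1.71 to -1.03). The kinesin KIF20B went from 19.6 to 108 CPM in LNCaP and from 24.9 to 56.4 CPM in VCaP–ENZ48, where 1 cell held 74 of 359 UMIs, and the kinetochore protein ZWILCH from 15.6 to 92.6 and from 14.97 to 32.97 CPM. TCOF1, treacle, a nucleolar factor of ribosomal RNA transcription, was the lowest, at -2.21 (-2.80 to -1.61). It stood at 10.6 CPM in the least cycling and 51.9 CPM in the other LNCaP cells, found in 32 of 471 and 118 of 472 cells, while VCaP–ENZ48 had 30.6 and 32.5 CPM. PUS1, a pseudouridine synthase, completed the 5 lowest at -1.41. Of the other S and G2M genes, 19 of 21 and 13 of 16 had a difference below 0, with medians of -0.31 and -0.34.

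On the other side IGFBP3, which binds insulin-like growth factors, had the highest difference, 1.61 (1.14 to 2.07). It was at 44.2 CPM in the least cycling and 19.04 CPM in the other LNCaP cells, found in 70 of 471 and 44 of 472 cells, and at 87.0 and 114 CPM in VCaP–ENZ48, where 1 of the other cells held 82 of 727 UMIs. VPS54, a tethering protein of the Golgi, went from 42.0 to 19.04 CPM in LNCaP and from 16.6 to 20.4 CPM in VCaP–ENZ48 (1.44, 0.88 to 2.00). GPR158 (1.44), TMEM127 (1.42) and the antisense RNA ALOX12-AS1 (1.26) followed on 30 to 85 UMIs in each least cycling sum, and reads of ALOX12-AS1 cannot be told from those of genes on the opposite strand if counting ignored strand. Among gene lists, 18 of 21 ER chaperone genes had a difference above 0 (median 0.42, none called), with HSPA5 at 0.85, all 7 BMP and TGF-beta feedback genes (median 0.55, PMEPA1 called at 1.01) and 13 of 13 mitochondrially encoded mRNAs (0.15). KLK3 had a difference below 0 (-0.85, -1.37 to -0.33), with 113 CPM in the other LNCaP cells. Both sets came from the same libraries, and their cells were not independent replicates.

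**Figure D5:**
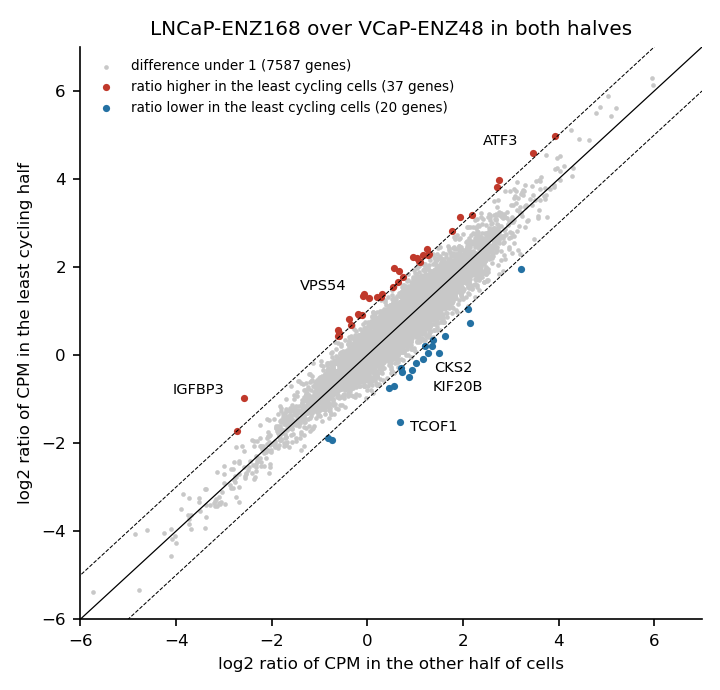
Log2 ratio of CPM, LNCaP–ENZ168 over VCaP–ENZ48, in the least cycling cells (vertical axis) against the other cells (horizontal axis) for 7644 genes. The solid line marks equal ratios and the dashed lines a 2-fold difference, and 37 genes lie above and 20 below them.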

How the data were processed

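Drop-seq libraries of LNCaP–ENZ168, VCaP–ENZ48 and VCaP parental were read as UMI counts per gene and cell, deposited by the authors, who used Drop-seq tools, STAR and Picard on GRCh38 with Gencode annotation, expecting 1000 cells per sample. For later analysis they filtered cells on genes, molecules and mitochondrial reads, and the deposited tables hold 1000 barcodes each. Here cells with at least 2000 UMIs, 300 genes and at most 25% mitochondrial UMIs were kept; doublets were not removed, and no caller was run. UMIs were summed over the chosen cells and scaled to CPM. Genes averaging 10 CPM or more over both drug-treated sets entered the comparison, a call being 4-fold from the median ratio, or 2-fold between sets of cells with at least 30 UMIs in each sum. Ratios have exact conditional intervals, differences between sets Wald intervals, and CPM exact Poisson intervals, all at 95%. Shares of cells have Clopper-Pearson intervals after thinning to 2000 UMIs. Named by rule were the 15 highest and 15 lowest ratios among called genes with at least 100 CPM in the higher library, called list members with at least 50 CPM there (at most 5 each way) with the 3 members of highest mean CPM, the 5 largest differences each way between sets of cells, and KLK2, KLK3, FKBP5, ERG, CCND1, CDKN1A, CDKN1B, MME and NPY. Chosen after their values were seen were ADM, ANXA1, ANXA2, ANXA3, BMP7, BMPR1B, CDH1, CDK1, CDK4, CHGA, CKS1B, EGR1, ENO2, FOXA1, HMGCS1, HOXA13, HOXC9, HSD17B11, IFITM2, INSIG1, KLK4, KRT8, MT-ND5, RB1, RBL2, RPL8, RPL13, SCG2, SLC7A11, SRD5A1, SRD5A3, TMPRSS2, TTK, VIM and the genes named by position. Members and lists were chosen with earlier results of these data known. Coordinates are from Gencode v44. Python 3.11.15, numpy 2.4.6, pandas 2.3.3, scipy 1.17.1, R 4.3.3 and edgeR 4.0.16 (TMM factors only) were used, and the code was tested on simulated data. Some genes are not reported here.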

Additional observations from a re-analysis of the deposited data

How the results depend on the processing

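No paired analysis was possible because there was a single library per group, and leaving out a library was not possible for the same reason. The median log2 ratio of all genes was 0.67, and 0.054 with TMM scaling, 0.061 with median-of-ratios scaling and 0.40 without mitochondrial and ribosomal protein genes. Genes higher in LNCaP–ENZ168 numbered 979 without centring, 216 with 5 CPM added, 1499 at a mean of at least 1 CPM and 142 at 50 CPM, and genes lower 2771 at 1 CPM and 220 at 50 CPM. List medians moved without centring to 0.24 (androgen-induced targets), 1.10 (G1 and quiescence), 1.69 (steroid enzymes), 0.54 (S phase) and 0.97 (G2M), and at 50 CPM to -1.13 (androgen-induced targets), 0.37 (S phase) and 0.76 (G2M). With means in place of medians they were -1.41 (androgen-induced targets) and -0.19 (G2M), and over all kept cells 1.19 (G2M). Between the sets of cells, ratios higher in the least cycling cells numbered 7 among cells of 4000 to 12000 UMIs, 19 without barcodes ending in N, 57 when ranked by the other S and G2M genes and 81 for the lowest against the highest 25%, and ratios lower 32 at 4000 UMIs and 34 for 25% against 25%. The cause of these shifts was not tested. Of 85 named genes called, 73 to 85 were still called under the 19 alternatives that gave all of them a value, 82 of 84 in cells of 4000 to 12000 UMIs, 79 of 79 without mitochondrial and ribosomal protein genes and 67 of 68 at 50 CPM, and no called one changed sign. Over all 154 named genes 17 changed sign in some alternative, 12 of them without centring, all within 1.01 of the median, among them CCND1 (0.42 without centring), CDKN1A (0.46) and FKBP5 (0.24). The VCaP sums rest on more UMIs than the LNCaP sum, so genes low in LNCaP are the least precise.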
